A study of Mus musculus with 6 samples.

Results

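The 10 members described here were Itgae, Itgb7, Itga4, Itga1, Ccr9, Ccr10, Gpr18, Cd69, Cd160 and Cd7, genes that take lymphocytes into the gut wall or mark those that stay there. They were chosen by symbol from the 32285 genes of the feature table, and all 10 were found in each of the 6 matrices. CD45-positive cells of the colon of wild-type mice had been profiled by droplet single-cell RNA sequencing from the 5′ end of transcripts. Pseudo germ-free (pGF) mice, given antibiotics for 4 weeks before and then during dextran sulfate sodium (DSS), were set against specific pathogen free (SPF) mice, which received no such pretreatment, at days 0, 2 and 7 of DSS. DSS is a polysaccharide that damages the colonic epithelium when taken up by mouth. Before the sort, the epithelium was stripped with EDTA and the tissue left was digested, so lymphocytes lying in the epithelium could be lost in part. Each of the 6 groups was 1 library, the number, strain, sex and age of the mice behind a library are not given in the sources used here, and all mice were wild type. No difference below therefore has a replicate check or a p-value: each compares 2 libraries, not conditions.

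Lymphocytes enter the gut through integrins that bind adhesion molecules on vessels and through chemokine receptors that read signals from the epithelium. The integrin alpha 4 chain (Itga4) pairs with beta 7 (Itgb7) to bind MAdCAM-1 on gut venules, and alpha E (Itgae, CD103) pairs with the same beta 7 chain to hold cells against E-cadherin in the epithelium. Cells that stay, among them the CD8 and gamma-delta T cells that lie between epithelial cells, are commonly marked by CD69 and CD103 and carry few receptors for leaving through lymph. The other members are alpha 1 integrin (Itga1, CD49a), which binds collagen, CCR9, the receptor for CCL25, CCR10, the receptor for CCL28, and the lipid-sensing receptor GPR18. CD160, a receptor for HVEM (Tnfrsf14), and CD7, a membrane glycoprotein, complete the set.

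Cd160 and Itga1 are shown by sequence because both were high in the same cells, CD8 and Trdc T cells and NK cells, and at most 27.0 CPM (a level defined below) in ILC2, B and plasma cells. The sequences run from 250 bases before to 50 bases after a transcript start (RefSeq, GRCm38.p6) and are written 5′ to 3′ on the gene's strand. Capitals mark ACCACA or its reverse complement TGTGGT, the core bound by RUNX factors, which act in CD8 T cell development. Cd160 has 2 starts, at chr3:96829302-96829601 and chr3:96814472-96814771 (minus strand), and the Itga1 window is chr13:115101915-115102214 (minus strand).
Cd160 upstream start: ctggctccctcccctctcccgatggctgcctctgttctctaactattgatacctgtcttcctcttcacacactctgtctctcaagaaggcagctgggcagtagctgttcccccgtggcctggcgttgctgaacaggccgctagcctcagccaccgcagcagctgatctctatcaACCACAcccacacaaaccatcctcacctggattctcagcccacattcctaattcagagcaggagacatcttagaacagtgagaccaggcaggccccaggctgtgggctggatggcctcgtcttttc
Cd160 inner start: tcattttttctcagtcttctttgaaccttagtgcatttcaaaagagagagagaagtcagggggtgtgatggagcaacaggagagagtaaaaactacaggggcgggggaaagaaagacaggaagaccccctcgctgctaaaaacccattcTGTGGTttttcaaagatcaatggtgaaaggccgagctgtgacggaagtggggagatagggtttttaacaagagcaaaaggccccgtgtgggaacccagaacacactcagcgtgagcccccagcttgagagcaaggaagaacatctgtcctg
Itga1: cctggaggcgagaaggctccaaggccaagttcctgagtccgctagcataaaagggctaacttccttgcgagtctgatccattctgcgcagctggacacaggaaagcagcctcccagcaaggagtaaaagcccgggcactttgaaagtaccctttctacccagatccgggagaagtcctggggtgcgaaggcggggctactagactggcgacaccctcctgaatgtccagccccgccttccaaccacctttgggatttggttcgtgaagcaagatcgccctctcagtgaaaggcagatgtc
Both Cd160 windows held 1 core and the Itga1 window held none. On either strand, 16.8% of 32851 promoter windows of 300 bases held it, so a match is common. Of the 6 members with an entry, Itga4, Cd160 and Gpr18 had a core and Itgb7, Itga1 and Ccr9 had none. AGGTCA, the half-site of nuclear receptors such as those for retinoic acid, was in 16.3% of all windows (read on both strands, as AGGTCA or TGACCT) and in none of the members'. These are matches of letters, not binding sites.

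The libraries held 32870737, 52772901 and 23335071 UMIs (unique molecules) in pGF at days 0, 2 and 7 and 43949679, 37169685 and 46830975 in SPF. Clustering of 29130 kept cells gave 34 clusters, made without the members among the clustering genes and named from marker lists, so each name means cells like that type. T cells were cells of T clusters with a UMI of Cd3d, Cd3e or Cd3g: 211, 4193 and 4039 in pGF and 341, 538 and 3069 in SPF. They were split by single UMIs into CD4 T, CD8ab T (with Cd8b1), CD8aa T (Cd8a without Cd8b1), Trdc T (with Trdc, the gamma-delta receptor constant gene) and other T cells. A cell whose gate gene went undetected falls among the other T cells. If Cd8a was detected and only Cd8b1 or Trdc was missed, it falls into CD8aa T instead. The subsets are therefore enriched, not pure, and CD8aa T can hold CD8ab and gamma-delta T cells. In that order the subsets held 7, 20, 68, 75 and 41 cells in pGF and 13, 43, 73, 146 and 66 in SPF at day 0. At day 2 they held 105, 283, 1146, 1163 and 1496 cells in pGF and 3, 25, 149, 245 and 116 in SPF. At day 7 they held 172, 464, 1039, 926 and 1438 cells in pGF and 50, 207, 951, 1284 and 577 in SPF. NK cells (25, 261 and 239 in pGF, 12, 35 and 51 in SPF) and ILC2 (22, 120 and 131 in pGF, 12, 59 and 31 in SPF) were cells of those clusters with no Cd3 UMI. B cells numbered 9, 95 and 695 in pGF and 0, 3 and 291 in SPF, plasma cells 592, 77 and 276 in pGF and 1354, 352 and 91 in SPF. No cluster met the naming rule for ILC3. Levels are CPM, a gene's summed UMIs divided by all UMIs of the class in that library, in the usual CPM unit. They are quoted from classes with at least 30 cells in a library unless the cell number is given, and compared only where both libraries had that many. Per T cell the median was 5575, 3029 and 2422 UMIs in pGF and 4790, 2940 and 3131 in SPF, so shares of cells with a UMI were taken after thinning each cell to 1000 UMIs, which left out 0, 92 and 116 shallower T cells in pGF and 10, 15 and 128 in SPF. Brackets hold exact 95% intervals (Poisson for levels, Clopper-Pearson for shares, and for log2 folds the binomial split of the UMIs between both libraries), which cover counting error only.

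Several features of the libraries bear on what follows. Between 5 and 131 barcodes were shared by any pair of libraries, at most 1.67% of the smaller one. Ptprc, the gene for CD45, was at 998 to 1382 CPM in T cells and at 0.313 to 57.6 CPM in the epithelial cells that came through the sort. Barcodes over the mitochondrial limit were 28.1%, 19.3% and 6.41% in pGF and 22.0%, 61.1% and 8.05% in SPF, so SPF at day 2 lost most of its barcodes. Trdc T cells were 35.6%, 27.7% and 22.9% of T cells in pGF and 42.8%, 45.5% and 41.8% in SPF. The part of cell loss and of subset make-up in the pooled T cell levels was not tested, and values by subset are given beside them. The 10 neutrophil markers summed to 3.12, 6.68 and 10.9 CPM in T cells of pGF at days 0, 2 and 7, and to 6.52, 8.79 and 819 CPM in T cells of SPF. None of the 10 was at 0 in SPF at day 7. Free RNA of plasma cells was also present: their 10 markers summed to 341 to 1346 CPM in T cells over the 6 libraries. T cells of the day 7 libraries fell largely into different clusters. Clusters 1 and 5 held 21.9% and 6.71% of T cells in pGF at day 7 and 38.9% and 49.1% in SPF at day 7, while clusters 0, 2 and 6 held 25.4%, 14.0% and 15.5% in pGF and 0.945%, 0.847% and 0.717% in SPF. Cluster 13, with Ccr7, Lef1 and S1pr1 among its leading genes, held 11.2% of T cells in pGF and 2.57% in SPF.

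**Figure D1:**
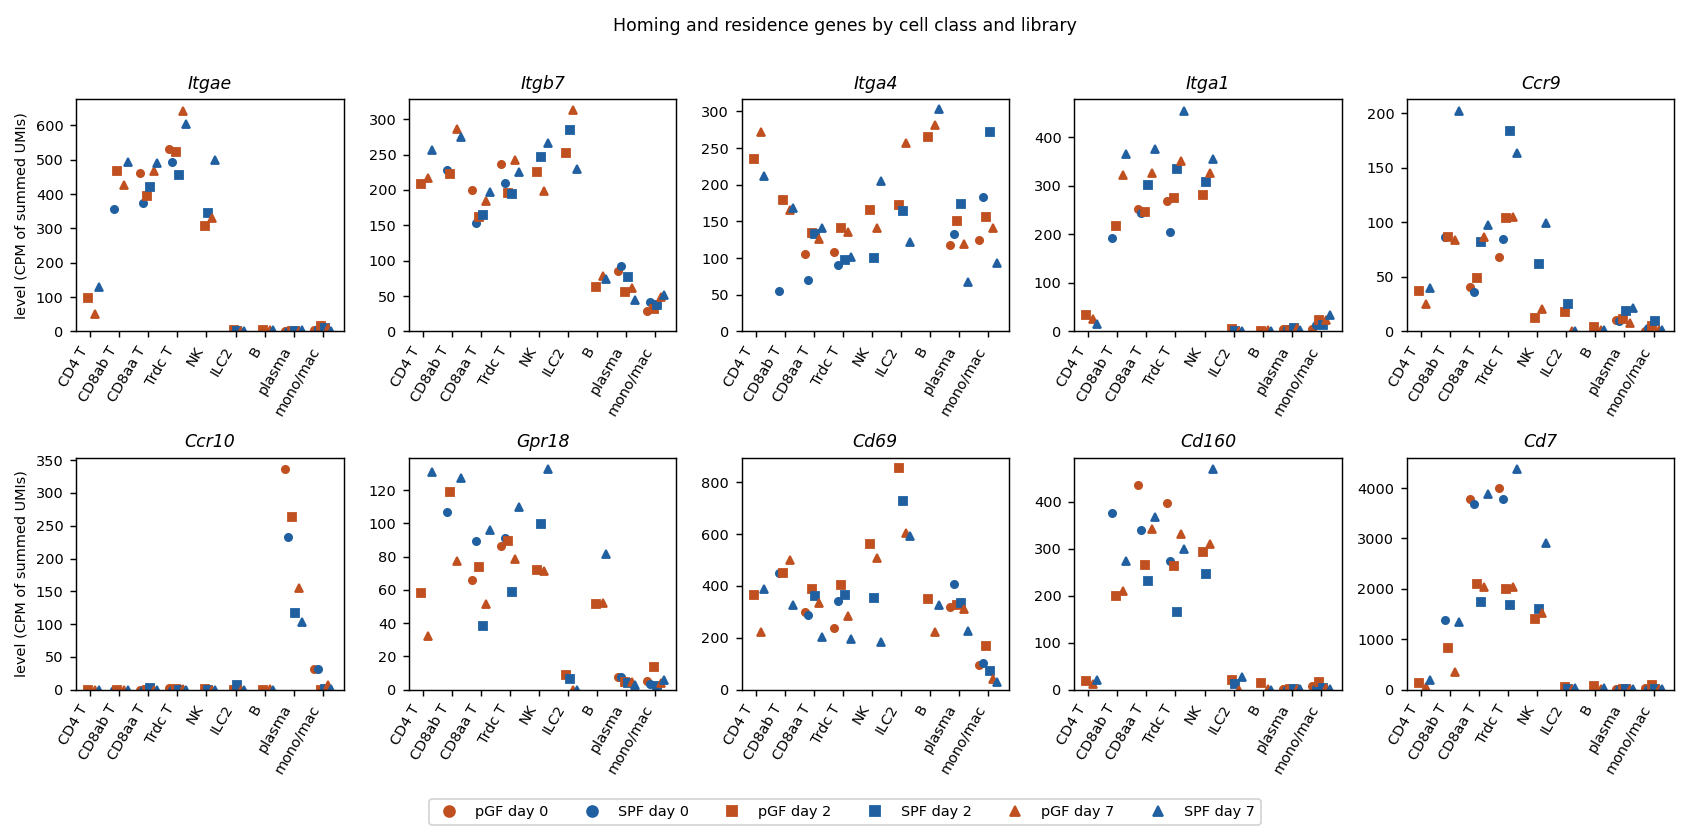
Level of each member (CPM of summed UMIs, linear axes from 0) in CD4, CD8ab, CD8aa and Trdc T cells, NK cells, ILC2, B cells, plasma cells and monocytes or macrophages. Each point is 1 library with at least 30 cells of that class, pGF to the left of SPF at each day, and Ccr10 is high in plasma cells alone among these classes.

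Of the 10 members 9 had at least 20 UMIs in the higher library in all T cells, and 1 of them, Cd7, differed by at least 2-fold in any of the 7 library pairs. Folds are log2 of (CPM + 10) ratios, a scale that understates low genes. In pGF against SPF, 0 of 9 members were past 2-fold at day 0 (1.09% of all genes tested), 0 at day 2 (1.72%) and 1, Cd7, at day 7 (1.68%). In SPF, 0 members differed between days 2 and 0 (3.15% of all genes) and 1, Cd7, between days 7 and 2 (2.45%). In pGF, 0 differed between days 2 and 0 (1.27%) and 0 between days 7 and 2 (0.672%). The median log2 fold of the 9 members for pGF against SPF was 0.15, 0.15 and −0.22 at days 0, 2 and 7, against 0.02, 0.03 and −0.04 for all genes. On this scale every tested member other than Cd7 stayed within 2-fold in each of the 7 library pairs, Ccr9 at day 2 narrowly so (−0.96, from 59.8 CPM in pGF and 126 CPM in SPF).

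**Figure D2:**
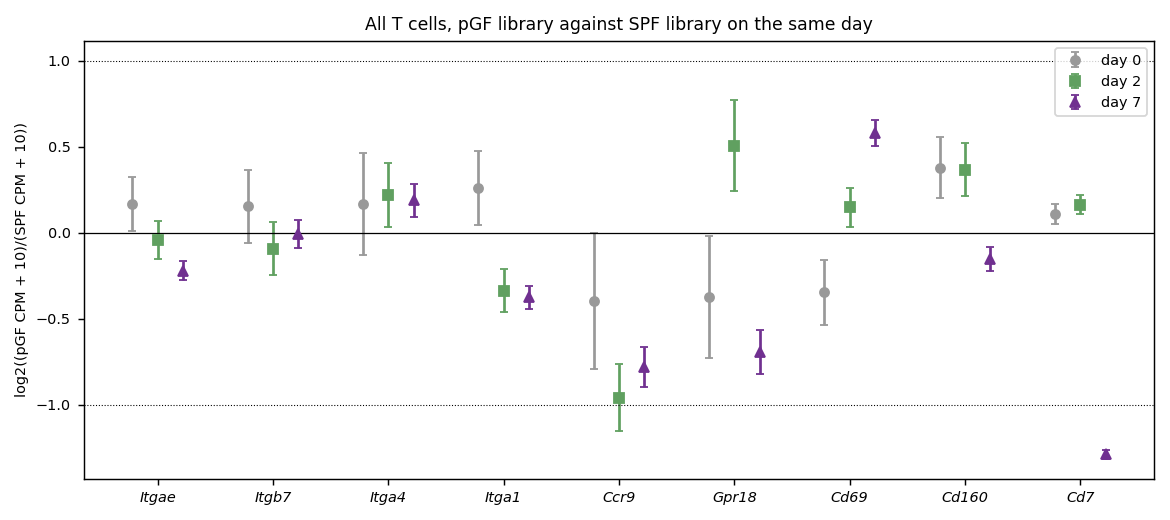
Log2 fold of (CPM + 10) between the pGF and the SPF library of the same day in all T cells for the 9 members that passed the UMI minimum, with 95% counting intervals and dotted lines at 2-fold. Cd7 at day 7 lies beyond the lower line at −1.29, and Ccr9 lies below 0 at each day.

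Itgae (chromosome 11, 73090583 to 73147446, plus strand), the chain that binds E-cadherin, was steady in T cells. Its level was 460, 399 and 438 CPM in pGF at days 0, 2 and 7 and 409, 411 and 512 CPM in SPF. All 6 values lay within 399 to 512 CPM, and the arms interleaved. Without thinning, 77.7%, 59.1% and 54.0% of pGF T cells and 70.1%, 60.8% and 66.9% of SPF T cells had an Itgae UMI. After thinning, 39.8%, 30.8% and 32.5% of pGF T cells and 30.2%, 34.6% and 38.2% of SPF T cells had one, against at most 1.35% of monocytes or macrophages, 0.870% of epithelial cells and 3.13% of neutrophils. Trdc T cells had the highest level, a mean of 541 ± 69.7 CPM (SD over 6 libraries, which differ in arm and day). CD8ab T cells (436 ± 59.9, 4 libraries) and CD8aa T cells (434 ± 45.3, 6 libraries) did not differ beyond that spread, and NK cells followed at 370 ± 87.1 (4 libraries) and other T cells at 330 ± 39.7 (6 libraries). CD4 T cells were far lower at 92.9 ± 40.5 CPM (3 libraries), and ILC2, B and plasma cells stayed at or under 3.98 CPM. In CD4 T cells at day 7 the level was 50.2 CPM in pGF (22 UMIs) and 131 CPM in SPF (26 UMIs), a log2 fold of −1.23 (−1.99 to −0.45). These CD4 T cells differed in cluster make-up, with 66.3% in cluster 13 and 30.8% in cluster 16 in pGF, and 40% and 54% in SPF. Foxp3, the factor of regulatory T cells, was 52.5 CPM in CD4 T cells of pGF and 227 CPM in those of SPF. Among all T cells of cluster 13, Itgae was 26.5 CPM in pGF and 8.80 CPM in SPF (30 and 2 UMIs), the opposite direction, and in cluster 16 it was 106 CPM in pGF and 171 CPM in SPF. What part that make-up had in the CD4 T cell values of Itgae, Gpr18 and Cd7 was not tested.

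Itgb7 (chromosome 15, 102215995 to 102231944, minus strand), the beta chain shared by both gut integrins, was present in every lymphocyte class. T cells had 238, 182 and 217 CPM in pGF and 214, 195 and 218 CPM in SPF, and at no day did the arms differ by more than 0.15 on the log2 scale. ILC2, with Itgae at 2.97 CPM or less, had an Itgb7 level of 252 and 314 CPM in pGF at days 2 and 7 and 284 and 230 CPM in SPF. These values lay above those of T cells in each of these libraries, but only narrowly in SPF at day 7. There the ILC2 value came from 31 cells and T cells had 218 CPM. B cells (62.7 to 78.2 CPM) and plasma cells (45.2 to 92.9 CPM) had less. Monocytes or macrophages had 29.0 to 51.9 CPM, below the B and plasma cells of the same library except for plasma cells of SPF at day 7 (45.2 CPM, against 51.9 CPM). In Trdc T cells at day 7, Itgb7 was detected in 22.4% of cells with an Itgae UMI and 23.9% of cells without one in pGF, and in 21.7% and 17.7% in SPF. In CD8ab T cells at day 7 the shares were 33.3% and 23.3% in pGF and 33.3% and 17.9% in SPF.

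Itga4 (chromosome 2, 79255426 to 79333123, plus strand), the alpha chain for MAdCAM-1 and VCAM-1, had another order over the classes. B cells had most, 284 ± 19.2 CPM (3 libraries), followed by CD4 T cells at 239 ± 30.3 (3 libraries), other T cells at 183 ± 19.0 (6 libraries), ILC2 at 179 ± 56.6 (4 libraries) and monocytes or macrophages at 162 ± 61.8 (6 libraries). CD8aa T cells (118 ± 26.6) and Trdc T cells (112 ± 20.8) were lowest among T cells and did not differ beyond their spread. T cells as a whole had 118, 152 and 157 CPM in pGF and 104, 129 and 137 CPM in SPF, higher in pGF at each day by 0.17, 0.22 and 0.19 on the log2 scale. The day 0 interval includes 0 (−0.13 to 0.46). In ILC2 at day 7, Itga4 was 257 CPM in pGF (86 UMIs) and 122 CPM in SPF (9 UMIs). It was the 1 of 3 members tested past 2-fold (1.02 on the log2 scale, 0.08 to 2.07), but 24.6% of all genes were past 2-fold in that pair of 131 and 31 cells. In plasma cells of SPF it was 67.0 CPM at day 7 and 174 CPM at day 2, a log2 fold of −1.25, where 8.09% of all genes were past 2-fold, and it was −0.86 to −1.36 over the settings tried, short of 2-fold with TMM scaling, with a pseudocount of 50 CPM, and with antigen receptor, mitochondrial and haemoglobin genes left out of the CPM. The median of all genes in that pair was −0.35. With Cd7 (17.9 CPM at day 7 and 2.19 CPM at day 2, from 27 and 10 UMIs), that made 2 of 7 members tested. The Cd7 fold lay between 0.38 and 2.57 over the settings tried. It was not called with a mitochondrial limit of 20%, no doublets removed, thinned cells or a pseudocount of 50 CPM. After thinning, 4.82% of these day 7 plasma cells had a Cd7 UMI, against up to 5.56% of monocytes or macrophages over the libraries.

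Itga1 (chromosome 13, 114953096 to 115101964, minus strand), the collagen-binding chain, followed Itgae over the classes. NK cells had 317 ± 31.3 CPM (4 libraries), Trdc T cells 315 ± 86.2 (6 libraries), CD8aa T cells 291 ± 53.7 (6 libraries) CD8ab T cells 275 ± 82.7 (4 libraries) and other T cells 234 ± 23.6 (6 libraries), neighbours in an order that did not differ beyond their spread. CD4 T cells had 24.6 ± 9.26 CPM (3 libraries), and ILC2 and B cells at most 5.94 CPM. In T cells the level was 247, 241 and 295 CPM in pGF and 205, 308 and 386 CPM in SPF. SPF was thus higher at days 2 and 7, with log2 folds of pGF against SPF of 0.26, −0.34 and −0.38 at days 0, 2 and 7. The direction at day 7 turned within cluster 1, the T cluster that both day 7 libraries shared most: 326 CPM in pGF (883 cells) and 250 CPM in SPF (1195 cells), a log2 fold of 0.37. Itgae turned likewise there, 462 CPM in pGF and 361 CPM in SPF.

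Ccr9 (chromosome 9, 123678439 to 123784330, plus strand), the receptor for the epithelial chemokine CCL25, was lower in pGF than in SPF T cells at all 3 days. T cells had 46.7, 59.8 and 69.3 CPM in pGF and 64.6, 126 and 126 CPM in SPF. Log2 folds were −0.40 (−0.79 to −0.00), −0.96 (−1.16 to −0.76) and −0.78 (−0.90 to −0.66), all short of 2-fold, and at days 2 and 7 both pGF values lay below both SPF values. The day 2 fold passed 2-fold in 6 of 17 other settings, a pseudocount of 1 CPM among them, and lay between −1.11 and −0.68. Without thinning, 17.5%, 12.6% and 12.0% of pGF T cells and 20.5%, 23.4% and 26.8% of SPF T cells had a Ccr9 UMI. After thinning, 4.27%, 5.41% and 6.02% of pGF T cells and 6.65%, 10.3% and 11.1% of SPF T cells had one, against at most 1.68% of monocytes or macrophages. Trdc T cells (118 ± 45.6 CPM, 6 libraries) and CD8ab T cells (115 ± 58.5, 4 libraries) had most, and ILC2, B and plasma cells at most 25.3 CPM. In Trdc T cells the level was 67.8, 104 and 105 CPM in pGF and 84.6, 184 and 163 CPM in SPF. SPF Trdc T cells at day 2 were past 2-fold over day 0 for Ccr9 (1.03, 0.65 to 1.43) and below it for Cd7, so 2 of 9 members, where 5.48% of all genes were past 2-fold, and the Ccr9 fold fell short in 6 of 17 other settings (0.65 at the lowest). CD8ab T cells at day 7 had 83.6 CPM in pGF and 202 CPM in SPF, a log2 fold of −1.18 (−1.54 to −0.82), and with Cd7 2 of 9 members were past 2-fold there, against 3.83% of all genes. Over the settings tried that Ccr9 fold lay between −1.49 and −0.82. Most of those CD8ab T cells lay in cluster 6 in pGF (52.6%) and in cluster 5 in SPF (77.8%). In other T cells at day 7 Ccr9 was also past 2-fold lower in pGF (−1.03). It was so in 12 of 17 other settings and lay between −1.27 and −0.59. With Cd7 that made 2 of 9 members, against 2.23% of all genes. Within cluster 1 at day 7, T cells had 79.5 CPM of Ccr9 in pGF and 89.9 CPM in SPF (log2 fold −0.16), and within cluster 5 they had 142 and 168 CPM, closer than in the pooled T cells. Within the small cluster 24 the arms were further apart, 19.5 CPM in pGF (1 UMI) and 138 CPM in SPF (19 UMIs).

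Ccr10 (chromosome 11, 101172997 to 101175443, minus strand), the receptor that brings antibody-secreting cells to CCL28, was a plasma cell gene here. Plasma cells had 337 (330 to 345), 263 (237 to 290) and 155 (143 to 168) CPM in pGF at days 0, 2 and 7 and 233 (228 to 239), 116 (107 to 127) and 104 (88.0 to 121) CPM in SPF. The pGF level was higher at each day. The log2 folds of pGF against SPF were 0.51 (0.47 to 0.56), 1.11 (0.93 to 1.29) and 0.54 (0.31 to 0.78), so it was past 2-fold at day 2, as 1 of 6 members tested. The pairs had 1.24%, 4.18% and 4.04% of all genes past 2-fold at days 0, 2 and 7, and at days 0 and 7 no member was. In cluster 3, which held most plasma cells of every library, the level was 324, 244 and 149 CPM in pGF and 226, 115 and 110 CPM in SPF. The day 2 fold was 0.48 with cells thinned to 1000 UMIs and also fell short of 2-fold with TMM scaling or a pseudocount of 50 CPM. Without thinning, 93.2%, 79.2% and 68.1% of pGF plasma cells and 74.3%, 60.8% and 45.1% of SPF plasma cells had a Ccr10 UMI. After thinning, 28.5%, 12.0% and 12.4% of pGF plasma cells and 21.4%, 10.9% and 6.02% of SPF plasma cells had one, with intervals at day 2 of 5.64% to 21.6% in pGF and 7.78% to 14.7% in SPF. Thinning left out 7, 2 and 2 plasma cells in pGF and 169, 12 and 8 in SPF, and at most 1.35% of monocytes or macrophages had a UMI. Plasma cells differed in depth, with medians of 36493, 18996 and 13845 UMIs in pGF and 23682, 11938 and 18981 in SPF, and 77 cells stood behind pGF at day 2. Ccr10 was at most 2.34 CPM in T cells and 0.717 CPM in B cells. Monocytes or macrophages had 30.6 CPM in pGF and 31.1 CPM in SPF at day 0, when plasma cells were most frequent, and at most 6.37 CPM later.

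**Figure D3:**
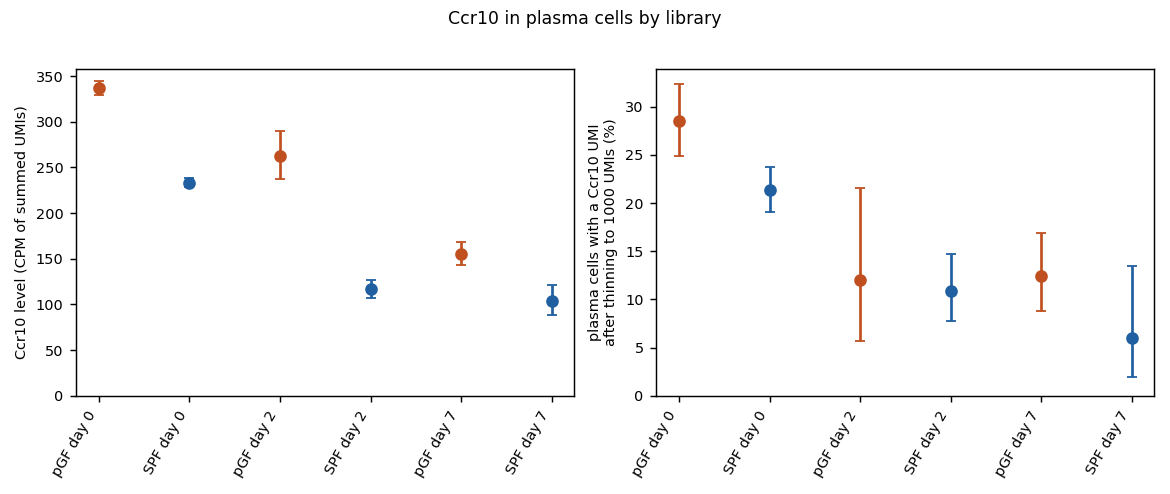
Ccr10 in plasma cells by library, as CPM of summed UMIs (left) and as the percentage of cells with a Ccr10 UMI after thinning to 1000 UMIs (right), with exact 95% counting intervals and pGF left of SPF at each day. The CPM of pGF lies above that of SPF at each day, while the shares at day 2 overlap (12.0% in pGF and 10.9% in SPF).

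Gpr18 (chromosome 14, 121911253 to 121915781, minus strand), a receptor known in mice to help place CD8 alpha-alpha and gamma-delta T cells in the gut epithelium, lay low in T cells. It had 63.1, 75.2 and 58.0 CPM in pGF and 84.8, 50.0 and 100.0 CPM in SPF, so pGF was higher at day 2 (0.51, 0.24 to 0.77) and lower at day 7 (−0.69, −0.82 to −0.56). The SPF values moved more. In CD8aa T cells of SPF, Gpr18 was 89.4, 38.2 and 95.9 CPM at days 0, 2 and 7, against 65.7, 74.0 and 51.3 CPM in pGF. The log2 folds in SPF were −1.04 (−1.77 to −0.31) for day 2 against day 0 and 1.14 (0.58 to 1.70) for day 7 against day 2, resting on 19 UMIs at day 2. With Cd7 that made 2 of 9 members past 2-fold in each pair, where 9.11% and 4.59% of all genes were. Thinned cells gave Gpr18 folds short of 2-fold in both pairs. CD8ab T cells had the highest mean (108 ± 21.9 CPM, 4 libraries). NK cells (94.0 ± 29.2 CPM, 4 libraries) and B cells (61.8 ± 17.0, 3 libraries) also had Gpr18, while ILC2 and plasma cells had at most 8.91 CPM. In CD4 T cells at day 7 it was 31.9 CPM in pGF (14 UMIs) and 131 CPM in SPF (26 UMIs), a log2 fold of −1.75 (−2.56 to −0.91). Gpr18 lies within Ubac2 on the other strand, and Ccr10 overlaps Cntnap1 in the same way, so reads of these neighbours could be counted only if strand was ignored. Itgae, Itga4, Cd160 and Cd7 also overlap a gene on the other strand. On the same strand, where strand does not separate reads, Itga1 overlaps Gm49395 and Pelo, and Ccr9 overlaps Gm17200 and Gm17020.

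Cd69 (chromosome 6, 129267325 to 129275436, minus strand), an early activation marker that also blocks exit through S1PR1, was highest in ILC2 at 695 ± 122 CPM (4 libraries), and was found in T, NK, B and plasma cells alike. T cells had 270, 401 and 324 CPM in pGF and 345, 362 and 214 CPM in SPF. Their log2 folds of pGF against SPF were −0.35 (−0.53 to −0.16), 0.15 (0.03 to 0.26) and 0.58 (0.50 to 0.65), so the order of the arms changed between days 0 and 7. In NK cells at day 7 it was 510 CPM in pGF (342 UMIs) and 183 CPM in SPF (33 UMIs), a log2 fold of 1.43 (0.93 to 1.96), and this was the 1 of 8 members tested past 2-fold, where 9.52% of all genes were. Genes switched on within minutes of stimulation, and also by tissue handling, moved beside it. Of 7 immediate-early genes, 3 (Nr4a1, Fosb and Egr1) were past 2-fold higher in pGF T cells at day 7, where 0.902% of all genes were. The list median there was 0.92, against −0.04 for all genes. The list medians were −0.67 and 0.30 at days 0 and 2, the same signs as Cd69. In NK cells at day 7 the list median was 1.30, against 0.22 for all genes. The part of handling in the Cd69 values was not tested. Within cluster 1 at day 7 Cd69 was 320 CPM in pGF and 230 CPM in SPF, and within cluster 5 it was 321 and 179 CPM.

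Cd160 (chromosome 3, 96798763 to 96829351, minus strand), the HVEM-binding receptor of intraepithelial T cells and NK cells, was lowest at day 2 in T cells of both arms. It had 386, 244 and 287 CPM in pGF and 295, 187 and 321 CPM in SPF. Its log2 folds of pGF against SPF were 0.38 (0.20 to 0.55), 0.37 (0.21 to 0.52) and −0.16 (−0.22 to −0.09), none past 2-fold. Without thinning, 71.6%, 44.6% and 42.7% of pGF T cells and 61.3%, 35.5% and 47.7% of SPF T cells had a Cd160 UMI. After thinning, 31.8%, 20.2% and 23.1% of pGF T cells and 23.0%, 14.0% and 24.2% of SPF T cells had one, against at most 2.78% of monocytes or macrophages. CD8aa T cells (331 ± 73.5 CPM, 6 libraries), NK cells (330 ± 97.8, 4 libraries), Trdc T cells (289 ± 78.1, 6 libraries), other T cells (287 ± 67.6, 6 libraries) and CD8ab T cells (265 ± 80.6, 4 libraries) did not differ beyond their spread. CD4 T cells had 16.6 ± 4.60 CPM (3 libraries) and ILC2 15.1 ± 11.7 (4 libraries).

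Cd7 (chromosome 11, 121036747 to 121039418, minus strand), a glycoprotein of T and NK cells, differed most. T cells had 3278 (3180 to 3379), 1760 (1737 to 1782) and 1509 (1485 to 1533) CPM in pGF at days 0, 2 and 7 and 3042 (2959 to 3126), 1573 (1516 to 1631) and 3702 (3665 to 3739) CPM in SPF. The arms were close at days 0 and 2, both were lower at day 2, and at day 7 SPF stood above its day 0 level while pGF did not. The log2 folds of pGF against SPF were 0.11, 0.16 and −1.29 (−1.32 to −1.26). Within arms, day 2 against day 0 gave −0.89 in pGF and −0.95 in SPF, and day 7 against day 2 gave −0.22 in pGF and 1.23 in SPF. Without thinning, 89.1%, 86.1% and 71.0% of pGF T cells and 88.9%, 87.4% and 91.3% of SPF T cells had a Cd7 UMI. After thinning, 77.7%, 69.8% and 57.4% of pGF T cells and 79.8%, 70.8% and 84.7% of SPF T cells had one, against at most 5.56% of monocytes or macrophages and 11.4% of neutrophils (SPF at day 7).

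The Cd7 difference at day 7 ran through every T cell subset. CD8aa T cells had 2033 CPM in pGF and 3879 CPM in SPF (log2 fold −0.93), Trdc T cells 2038 and 4386 CPM (−1.10), CD8ab T cells 351 and 1337 CPM (−1.90) other T cells 1290 and 2782 CPM (−1.10), and CD4 T cells 43.4 and 186 CPM (−1.88, from 19 and 37 UMIs). NK cells had 1510 CPM in pGF and 2910 CPM in SPF (−0.94). All values of pGF lay below those of SPF. With Itgae and Gpr18, 3 of 6 members tested were past 2-fold in CD4 T cells, where 16.2% of all genes were. In Trdc T cells 1 of 9 was (2.03% of all genes) and in CD8aa T cells 0 of 9 (1.74%). In other T cells 2 of 9 were, Cd7 and Ccr9 (2.23%). Along DSS, Trdc T cells had 3995, 1992 and 2038 CPM in pGF and 3781, 1678 and 4386 CPM in SPF. Day 2 over day 0 folds there were −1.0 in pGF and −1.17 in SPF and the day 7 over day 2 fold in SPF was 1.38, and in pGF at day 2 and SPF at day 7 Cd7 was the 1 member of 9 past 2-fold, against 2.63% and 3.14% of all genes. In CD8ab T cells of pGF, Cd7 was 351 CPM at day 7 and 827 CPM at day 2 (−1.21), again 1 of 9 members, where 1.54% of all genes were past 2-fold, and −0.64 with no doublets removed.

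**Figure D4:**
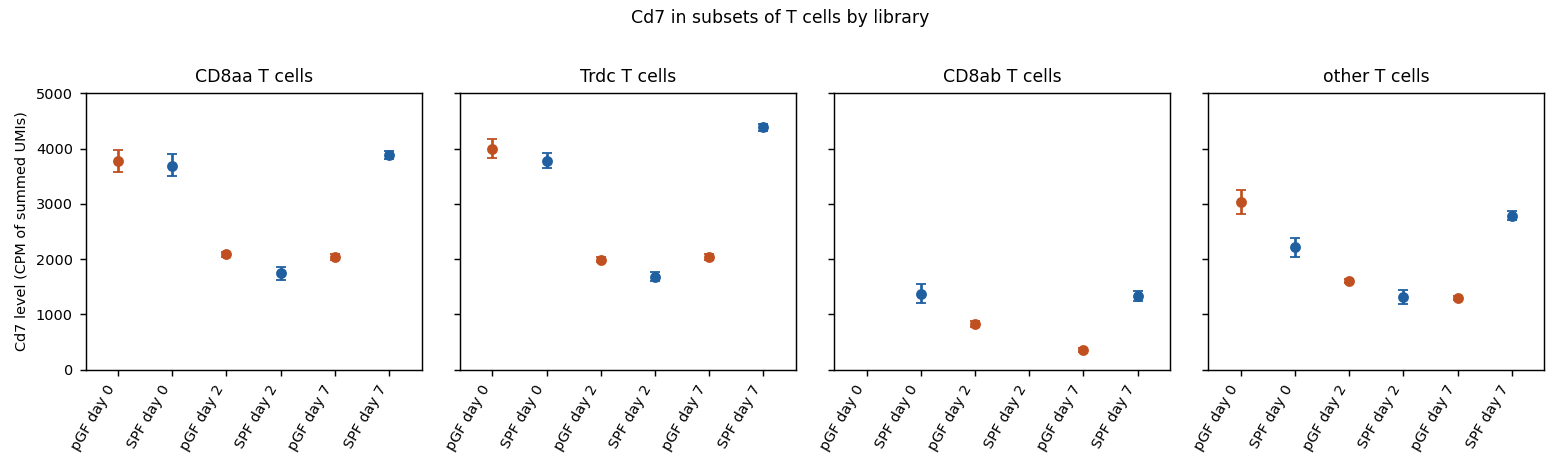
Cd7 level (CPM of summed UMIs) in CD8aa, Trdc, CD8ab and other T cells by library, with exact 95% Poisson intervals, pGF left of SPF at each day. Libraries with under 30 cells of a subset are not drawn, and the SPF day 7 points stand above the pGF day 7 points in all 4 subsets (2038 CPM in pGF and 4386 CPM in SPF in Trdc T cells).

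Within T clusters with at least 30 cells in both libraries, Cd7 at day 7 was also lower in pGF, by differing amounts and with overlapping intervals in cluster 16 (194 CPM in pGF and 240 CPM in SPF). In cluster 1 at day 7, Cd7 was 2081 CPM (2023 to 2139) in pGF and 3289 CPM (3236 to 3342) in SPF, a log2 fold of −0.66, where the pooled fold was −1.29. In cluster 5 it was 2084 CPM (1979 to 2192) in pGF and 4513 CPM (4455 to 4572) in SPF. Cluster 13, with its lymph node homing genes, had 48.5 CPM in pGF and 101 CPM in SPF and was a larger share of pGF T cells. SPF at day 7 was also the library with neutrophil RNA in its T cells, and the part of that RNA was not tested. In that library Cd7 was 8.55 CPM in monocytes or macrophages, 117 CPM in neutrophils (3816 cells, median depth 1320 UMIs) and 3702 CPM in T cells. The neutrophils are not a clean reference. In their clusters 8, 14 and 33, mostly from that library, 47.3%, 38.2% and 72.9% of cells had a Cd3 UMI. Plasma cells had 4.22 CPM in pGF and 17.9 CPM in SPF at day 7, and B cells had 7.17 CPM in pGF and 21.9 CPM in SPF.

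**Figure D5:**
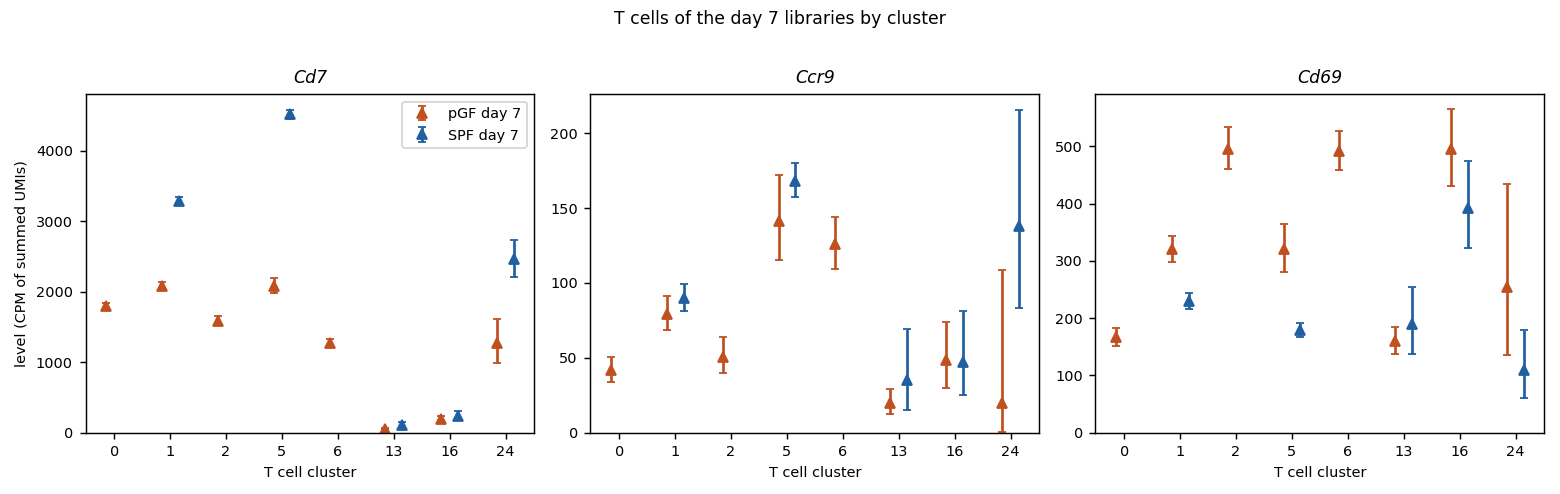
Cd7, Ccr9 and Cd69 levels (CPM of summed UMIs) in T cells of the pGF and SPF day 7 libraries within each T cell cluster that held at least 30 cells, with exact 95% Poisson intervals. In clusters 1 and 5 Cd7 of pGF lies below that of SPF (2081 and 3289 CPM in cluster 1), Cd69 lies above it, and the Ccr9 intervals overlap.

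Genes of the same programmes were counted from lists chosen by name. Among genes for egress and lymph node homing, Klf2, the factor that drives S1pr1, S1pr1 itself, the exit receptor, Ccr7, which takes cells to lymph nodes, and Lef1, a factor of naive T cells, were past 2-fold higher in pGF T cells at days 2 and 7. Ccr7 and Lef1 were also past 2-fold higher at day 0. Of all genes tested in T cells, 0.527%, 0.825% and 0.902% were past 2-fold higher in pGF at days 0, 2 and 7. Those past 2-fold lower were 0.568%, 0.896% and 0.777%. These shares stand beside all list counts in this paragraph. Klf2 was 252 CPM in pGF and 87.4 CPM in SPF at day 2, and 180 and 37.4 CPM at day 7. S1pr1 was 51.8 CPM in pGF and 7.14 CPM in SPF at day 2, and 63.2 and 12.3 CPM at day 7. Of 16 residence genes, 1 of 15 was higher and 2 were lower in pGF T cells at day 2 (Nr4a1 higher, the repressor Prdm1 and the signalling regulator Rgs1 lower), and 1 of 16, Nr4a1, was higher at day 7, with medians of −0.25 and −0.06. Of 14 other homing receptors, 0 of 9 tested were past 2-fold at day 0 and 0 of 11 at day 7. Cluster 13, with Ccr7, Lef1 and S1pr1 among its leading genes, was the larger share of T cells in pGF at day 7, and its part in these values was not tested.

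Of the ligands, Ccl28, Ccl25, Cdh1, Vcam1 and Madcam1 are given for epithelial cells or for monocytes or macrophages. Ccl28, the CCR10 ligand, was 60.2, 67.2 and 55.7 CPM in epithelial cells of pGF and 85.2 and 76.6 CPM in those of SPF at days 0 and 2, and SPF at day 7 had 28 epithelial cells. In monocytes or macrophages it reached at most 0.748 CPM. Ccl25, the CCR9 ligand, was low in epithelial cells, 9.09, 12.5 and 9.44 CPM in pGF and 21.4 and 8.34 CPM in SPF. Cdh1, E-cadherin, was 372, 366 and 372 CPM in epithelial cells of pGF and 377 and 570 CPM in SPF. Vcam1, which Itga4 binds with beta 1, was 375, 204 and 126 CPM in monocytes or macrophages of pGF and 214, 319 and 28.3 CPM in SPF. No endothelial cluster was named, and Madcam1 was at 0 in epithelial cells and in monocytes or macrophages of all 6 libraries.

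Across 60 units, each a cell class in 1 library with at least 30 cells, the genes whose log2(CPM + 10) varied most like each member among 7915 genes were named as a description. Units of a library share its depth and free RNA, and gene lengths were not used. Itgae went with Ctsw (Pearson r 0.966), Xcl1 and Nkg7, Cd160 with Ctsw (0.977), Nkg7 and Klrd1, and Cd7 with Klrd1 (0.981), Xcl1 and Nkg7, all genes of cytotoxic lymphocytes. Itga1 went with Tspan9 (0.954), Baiap3 and Klrd1. Ccr10 went with the plasma cell genes Tnfrsf17 (0.985), Derl3 and Cacna1s. Itgb7 went with H2-Q7 (0.940), Il2rg and H2-Q6, Cd69 with Il2rg (0.875), Cyfip2 and H2-Q6, and Itga4 with Fli1 (0.871), Cd52 and Cd53. Ccr9 went with Gimap7 (0.889), Tnfsf10 and Gpr55, and Gpr18 with Dtx1 (0.927), Gimap4 and Gimap7.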

How the data were processed

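The authors deposited 1 matrix of raw UMI counts per gene and barcode for each of 6 libraries, made with Cell Ranger 6.1.2 per the file headers. The submitters' processing notes also name mm10, R 4.1.3 and Seurat 4.1.1. Antigen receptor sequences were not used here. From the deposited counts, barcodes with at least 200 genes and at most 10% mitochondrial UMIs were kept and doublets were removed by score at 0.8% per 1000 barcodes (2 simulated per cell). Cells were clustered on 2000 variable genes, 30 components, 20 neighbours and the Leiden method (resolution 1, seed 0), leaving out the members, receptor, mitochondrial and sex-linked genes. Clusters were named from marker lists (mean log2 score of at least 1 and at least 3 detected markers). Of 12674 cells in T clusters, 283 without a Cd3 UMI were left out. So were 565 cells of unnamed T-scored clusters (456 in pGF at day 2) and 362 Cd3-positive cells in NK or ILC2 clusters. Clusters 8, 14 and 33, named neutrophil, were not counted as T cells either. They held 1179, 757 and 48 cells of SPF at day 7, and 47.3%, 38.2% and 72.9% of their cells had a Cd3 UMI. What this loss did to T cell values of that library was not tested.

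UMIs were summed per class and library. Library pairs were compared as log2 of (CPM + 10), called past 2-fold with at least 20 UMIs in the higher library. There is 1 library per group, so no test was made across libraries, and the 18 other settings tried (filters, doublets, resolution, seed, gates, thinning, scaling, pseudocount) are given as ranges. All 10 members are named, with lists of related genes of which members past 2-fold are named, and for likeness the 3 nearest genes. Results on some listed genes are not reported here. Members and lists were chosen with earlier results of these data known. Folds and intervals were tested on simulated data. Coordinates are from GENCODE M21 (GRCm38). Python 3.11.15, numpy 2.4.6, scipy 1.17.1, pandas 2.3.3, scikit-learn 1.9.0, igraph 0.11.9, leidenalg 0.10.2 and matplotlib 3.10.9 were used.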

Additional observations from a re-analysis of the deposited data

Results flagged for a closer look

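Cd7 in T cells went opposite ways between days 2 and 7 in the 2 arms: its log2 fold of day 7 against day 2 was −0.22 (−0.25 to −0.19) in pGF and 1.23 (1.18 to 1.28) in SPF. These differ by −1.45 (pGF minus SPF). Gpr18 in CD8aa T cells did so too, with −0.45 (−0.71 to −0.20) in pGF and 1.14 (0.58 to 1.70) in SPF, which differ by −1.59. Each arm is 1 library a day, so neither difference was tested. Over the settings tried the Cd7 fold in pGF T cells lay between −0.24 and −0.09. Trdc T cells of pGF did not show this fall, while CD8ab (−1.21) and CD4 T cells (−1.44) did. The CD4 T cell fold lay between −1.61 and −0.38 over the settings tried and was past 2-fold in 13 of 17. It was 1 of 5 members tested, where 3.72% of all genes were past 2-fold. Cluster 13, low in Cd7, was 4.41% of pGF T cells at day 2 and 11.2% at day 7. Its part in the fold of all pGF T cells was not tested.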

How the results depend on the processing

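No paired analysis was possible because each group is 1 library. The counts of members past 2-fold in T cells were recomputed under 15 planned settings and 3 chosen after seeing the data. In pGF against SPF at day 2 the count of 0 became 1, Ccr9, with a mitochondrial limit of 20%, at least 500 genes per cell, no doublets removed, resolution 0.6, a pseudocount of 1 CPM, or the Cd3 cells of NK and ILC2 clusters added (chosen later). At day 7 the count of 1 became 2, with Ccr9 beside Cd7, when no doublets were removed, and 0 within the largest shared T cluster (chosen later), where Cd7 was at −0.66. In SPF, day 2 against day 0, the count of 0 became 1, Cd7, with a mitochondrial limit of 20%, resolution 0.6 or TMM scaling. The counts of the other 4 pairs were the same in all settings run. Over the settings Cd7 in T cells at day 7 lay between −1.30 and −0.66. Of 1573 single gene values, 1464 stayed within the counting interval of the reported fold and 106 moved out of it. Sign changes of folds short of 2-fold lie among these and were not counted apart. Examples are Itgae (−0.22, up to 0.35) and Itga1 (−0.38, up to 0.37) in T cells, pGF against SPF at day 7. The other 3, all of folds past 2-fold, changed sign. The 3 were Cd7 in NK cells and ILC2 joined, pGF against SPF at day 7 (−1.03), at 0.84 with a mitochondrial limit of 20% and 1.06 with no doublets removed, and Cd7 in B cells of pGF, day 7 against day 2 (−2.35), at 0.46 with no doublets removed. Ccr10 in plasma cells at day 2 lay between 0.48 (cells thinned to 1000 UMIs) and 1.17. Small classes limit what can be seen: 3 CD4 T cells of SPF at day 2, for example, allow no comparison.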
